A study of Homo sapiens with 4 samples.

Results

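The comparison described here is the response of an encorafenib-resistant melanoma line to encorafenib: A375-R cells given 10 nM of the drug for 48 h against A375-R cells left untreated. It uses 2 of the 4 libraries of the study, 1 per group, and the gene and mature microRNA counts deposited for each. Of 46416 gene entries, 7504 had at least 10 counts in at least 1 of the resistant libraries and were compared, and of 644 mature microRNAs 184 were. The other libraries, also 1 each, came from the drug-sensitive A375-S line, untreated and under the same 10 nM encorafenib for 48 h. A375 is an established human melanoma line, labelled BRAF-mutated, and all cells were grown in DMEM high glucose medium with fetal bovine serum. How the resistant line was derived, whether it is a single clone, and whether drug was present before the experiment is not stated in the labels.

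BRAF is a kinase that activates MEK, which in turn activates ERK; in BRAF-mutated melanoma the mutant kinase keeps this MAPK pathway on. Encorafenib binds mutant BRAF and lowers ERK activity, and with it transcription of ERK outputs such as the SPRY and DUSP feedback inhibitors, cyclin D1 and many secreted factors. In melanoma cells BRAF inhibition is also known for raising MITF-driven pigment cell genes, while resistant cells are known for keeping or regaining ERK output under the drug.

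The libraries were made with a small RNA kit, and the mature microRNAs are shown first. The 5 microRNAs below were the ones at least 2-fold higher under the drug by their counting interval. Their seeds, bases 2 to 8 from the 5′ end and the part that pairs with target transcripts, are in capitals and all differ. The sequences are RefSeq's on GRCh38.p14, and 168 of the 184 compared microRNAs had one.
hsa-miR-34a-5p: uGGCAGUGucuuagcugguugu
hsa-miR-140-3p: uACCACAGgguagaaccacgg
hsa-miR-103a-3p: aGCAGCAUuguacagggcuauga
hsa-miR-29a-3p: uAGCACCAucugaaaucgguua
hsa-miR-181b-5p: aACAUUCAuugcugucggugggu
The following 2 were lower by the same measure.
hsa-miR-574-5p: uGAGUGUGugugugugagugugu
hsa-miR-6516-3p: aUCAUGUAugauacugcaaaca
The let-7 family, the group with the most counts, shares the seed GAGGUAG. Shown are 3 of its 9 members, the one with most counts and the pair whose intervals lay above 0. With positions counted from 1 at the 5′ end, let-7d differs from let-7a by U1A and U16C, and let-7i by G12U, A17G, U18C and A19U.
hsa-let-7a-5p: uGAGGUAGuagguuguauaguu
hsa-let-7d-5p: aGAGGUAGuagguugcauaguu
hsa-let-7i-5p: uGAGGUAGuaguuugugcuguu

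The untreated resistant library held 23029101 counts in the gene table and the treated one 20507667; the sensitive pair held 33664470 and 25539835. Ribosomal RNA took 92.4% and 88.7% of the resistant counts, so protein-coding genes rest on 326919 and 307026 counts. Ratios below are log2 of treated over untreated after trimmed-mean scaling (TMM) of all 4 libraries, each followed by its 95% interval. That interval covers counting error alone, since no group had a replicate: a ratio compares 2 libraries and no test between conditions was possible. A gene is called higher or lower where the interval lies wholly beyond 2-fold. The melanoma markers VIM, SOX10 and S100A1 were at 643, 94 and 163 counts untreated and 443, 86 and 129 treated, while MLANA and TYR were at 0 in both libraries and PMEL at 0 and 1. No fibroblast or endothelial marker reached 10 counts in either resistant library. Of 10 keratinocyte and epithelial markers 2 did, KRT18 at 64 and 21 counts and KRT10 at 39 and 38. BRAF itself had 14 counts in each library, a log2 ratio of 0.05 (-1.13 to 1.23).

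Of all 7504 gene entries compared, 299 were higher under encorafenib (3.98%) and 141 lower (1.88%). Among the 6678 protein-coding genes 90 were higher (1.35%) and 120 lower (1.80%), with a median log2 ratio of -0.02. Genes with an interval wholly above 0 made up 9.40%, and those wholly below 0 made up 10.7%. INHBA, IGFBP3, CD55 and SPRY4 were among the lower genes, and DCT, ANK3, RELN and IFIT3 among the higher ones.

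**Figure D1:**
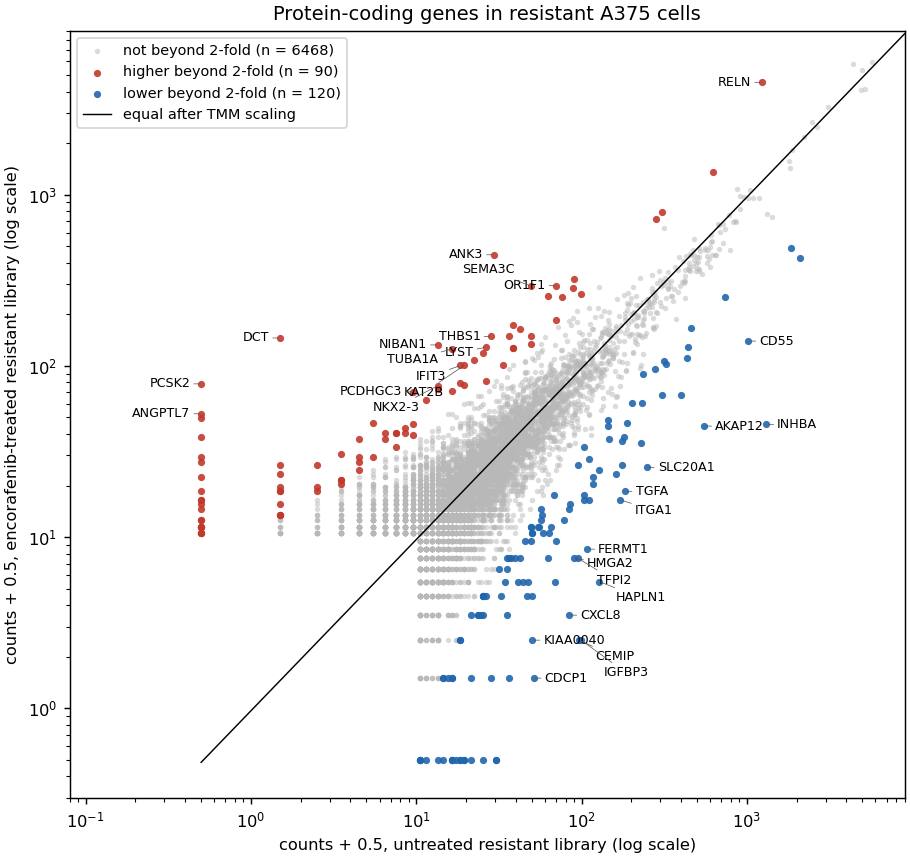
Counts plus 0.5 of each compared protein-coding gene in the untreated resistant library (horizontal axis, log scale) and the encorafenib-treated one (vertical axis, log scale), 1 point per gene, with genes called higher in red and lower in blue. Most points lie along the line of equal scaled counts, with INHBA at 1311 and 45 counts far below it and DCT at 1 and 145 far above it.

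INHBA, which encodes the beta A subunit of activin, had 1311 counts untreated and 45 treated, a log2 ratio of -4.80 (-5.28 to -4.39), and in the sensitive line 1773 and 27. IGFBP3, a binding protein for insulin-like growth factors, had 99 and 2 counts (-5.27, -8.65 to -3.69), and the hyaluronan-degrading CEMIP had 96 and 2 (-5.23, -8.60 to -3.64). These were nearly absent from the treated library. Also among the 15 named on this side were HAPLN1, a hyaluronan link protein (127 and 5 counts, -4.49), the chemokine CXCL8 (84 and 3, -4.55) and the protease inhibitor TFPI2 (95 and 7, -3.62). TGFA, a ligand of the EGF receptor, had 182 and 18 counts (-3.25, -4.08 to -2.59). CD55, which protects cells from complement, had 1021 and 139 counts (-2.82, -3.09 to -2.57). The collagen receptor subunit ITGA1 had 171 and 16 counts (-3.33), the transmembrane protein CDCP1 51 and 1 (-5.06), and the phosphate carrier SLC20A1 248 and 25 (-3.24). Inside the cell, the kinase anchor AKAP12 had 553 and 44 counts (-3.59, -4.08 to -3.16), the integrin activator FERMT1 108 and 8 (-3.63), the chromatin protein HMGA2 90 and 7 (-3.55), and KIAA0040 50 and 2 (-4.29). In the sensitive line IGFBP3 and CEMIP had no count under the drug, and the other 13 had ratios below 0, from -1.34 for TFPI2, whose interval there reached 0.72, to -5.04 for INHBA.

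FST, the extracellular activin antagonist, had 69 and 5 counts (-3.61), beside its ligand subunit INHBA. SFRP1, a secreted WNT antagonist, had 175 and 26 counts (-2.68), and the secreted hormone STC1 had 111 and 16 (-2.71). HMGA1, a relative of HMGA2, had 230 and 35 counts (-2.65), the inositol carrier SLC5A3 400 and 67 (-2.52), and the EGF receptor inhibitor ERRFI1 103 and 16 (-2.60). ATP5F1E, a small subunit of ATP synthase, had 442 and 129 counts (-1.72, -2.02 to -1.44) and was the only 1 of 65 compared nuclear-encoded respiratory chain genes called, against a median of 0.07 over that list.

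On the higher side, DCT, the melanin enzyme dopachrome tautomerase, had 1 count untreated and 145 treated, a log2 ratio of 6.64 (4.73 to 12.54), and in the sensitive line 0 and 332. PCSK2, a prohormone convertase of neuroendocrine cells, had 0 and 78 counts, at least 26.9-fold higher against a floor of 3 counts per library, and the secreted ANGPTL7 had 0 and 52, at least 17.9-fold higher. All 3 were close to undetected without the drug. ANK3, which anchors channels at the axon initial segment, had 29 and 445 counts (3.97, 3.45 to 4.58). RELN, the extracellular guidance protein reelin, had by far the most counts of the group, 1233 and 4528 (1.93, 1.83 to 2.02). SEMA3C, a secreted semaphorin, had 49 and 292 counts (2.61, 2.18 to 3.09), and the matrix protein THBS1 28 and 148 (2.43, 1.86 to 3.09). Also named by rank were NIBAN1, a stress-linked regulator of translation (13 and 132, 3.34), the acetyltransferase KAT2B (19 and 100, 2.41), the homeobox factor NKX2-3 (13 and 76, 2.55) and LYST, needed for lysosome-related organelles (26 and 128, 2.33). The interferon-induced IFIT3 was among them at 18 and 100 counts (2.49, 1.79 to 3.34). The remaining 3 are less certain in identity. TUBA1A (16 and 125, 2.98) has near-identical tubulin paralogs, PCDHGC3 (9 and 70, 2.94) shares exons with the other gamma protocadherins, and OR1F1 (70 and 294, 2.11) spans 3 tRNA genes.

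Of 26 listed MAPK pathway outputs 19 were compared, 8 were called lower and none higher, 14 had an interval below 0 and none above, and the median log2 ratio was -1.54 against -0.02 over all protein-coding genes. Of the 19, 9 reached the minimum of 10 counts only in the untreated library, among them 4 of the 8 called, and 1 only in the treated library. The 9 that reached it in both libraries also had a median of -1.54, and 8 of those 9 intervals lay below 0. Besides CXCL8, TGFA and HMGA2, the called members were IER3, an early response gene (161 and 23 counts, -2.73), and SPRY4, an inhibitor of receptor-to-ERK signalling (46 and 4, -3.32, -5.41 to -2.02). They also included the adaptor SH2B3 (62 and 7, -3.01), DUSP6, the phosphatase that inactivates ERK (127 and 24, -2.33, -3.05 to -1.72), and CCND1, the G1 cyclin D1 (189 and 46, -1.98, -2.49 to -1.52). SPRY2 (61 and 20 counts, -1.54, -2.37 to -0.81) and ETV4 (29 and 7, -1.93, -3.44 to -0.78) had intervals below 0 that did not clear 2-fold. DUSP4 had 111 and 70 counts (-0.61) and SPRED1 28 and 24 (-0.17, -1.02 to 0.67), so the feedback genes did not all stand alike. In the sensitive line the list's median was -2.27, and the difference of responses had an interval above 0 for 2 members and below 0 for 1.

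Immediate early and AP-1 genes were mixed, with 3 of 22 compared called lower, none higher and a median of -0.35. Besides IER3 these were the zinc finger factor EGR1 (95 and 26 counts, -1.80, -2.51 to -1.18) and MCL1, an anti-apoptotic protein (176 and 36, -2.23, -2.80 to -1.72). The AP-1 subunit JUN stood the other way at 32 and 77 counts (1.30, 0.70 to 1.96), as did JUND at 38 and 76 (1.04, 0.47 to 1.65) and FOSL2 at 7 and 25 (1.81, 0.64 to 3.34). Among 16 compared RAS, RAF, MEK, ERK and receptor kinase genes none was called, and the median was -0.23.

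Proliferation genes rest on few counts: 15 of 40 were compared, 4 were called lower and none higher, with a median of -1.43. Of the 15, 11 reached 10 counts only in the untreated library, including 2 of the 4 called. The 4 that reached it in both libraries had log2 ratios from -2.46 to 0.80. TOP2A, the topoisomerase of dividing cells, had 65 and 11 counts (-2.46, -3.59 to -1.58), and the kinetochore protein CENPF 58 and 10 (-2.43). The kinase CDK2 had 34 and 5 counts (-2.60) and MKI67, which encodes the Ki-67 antigen, 35 and 6 (-2.40, -4.04 to -1.23). In bulk RNA, fewer cycling cells and less of each transcript per cell cannot be told apart. The sensitive median was -3.48, or -3.17 with members at 0 set at the floor. Replication histones gave 1 called of 25 compared (median -0.65, sensitive -1.92), and the interval of the difference between lines was above 0 for 13. Of the 25, 11, including the 1 called, reached 10 counts only in the untreated library. The 14 that reached it in both libraries had a median of -0.22, with 2 intervals below 0 and none above.

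**Figure D2:**
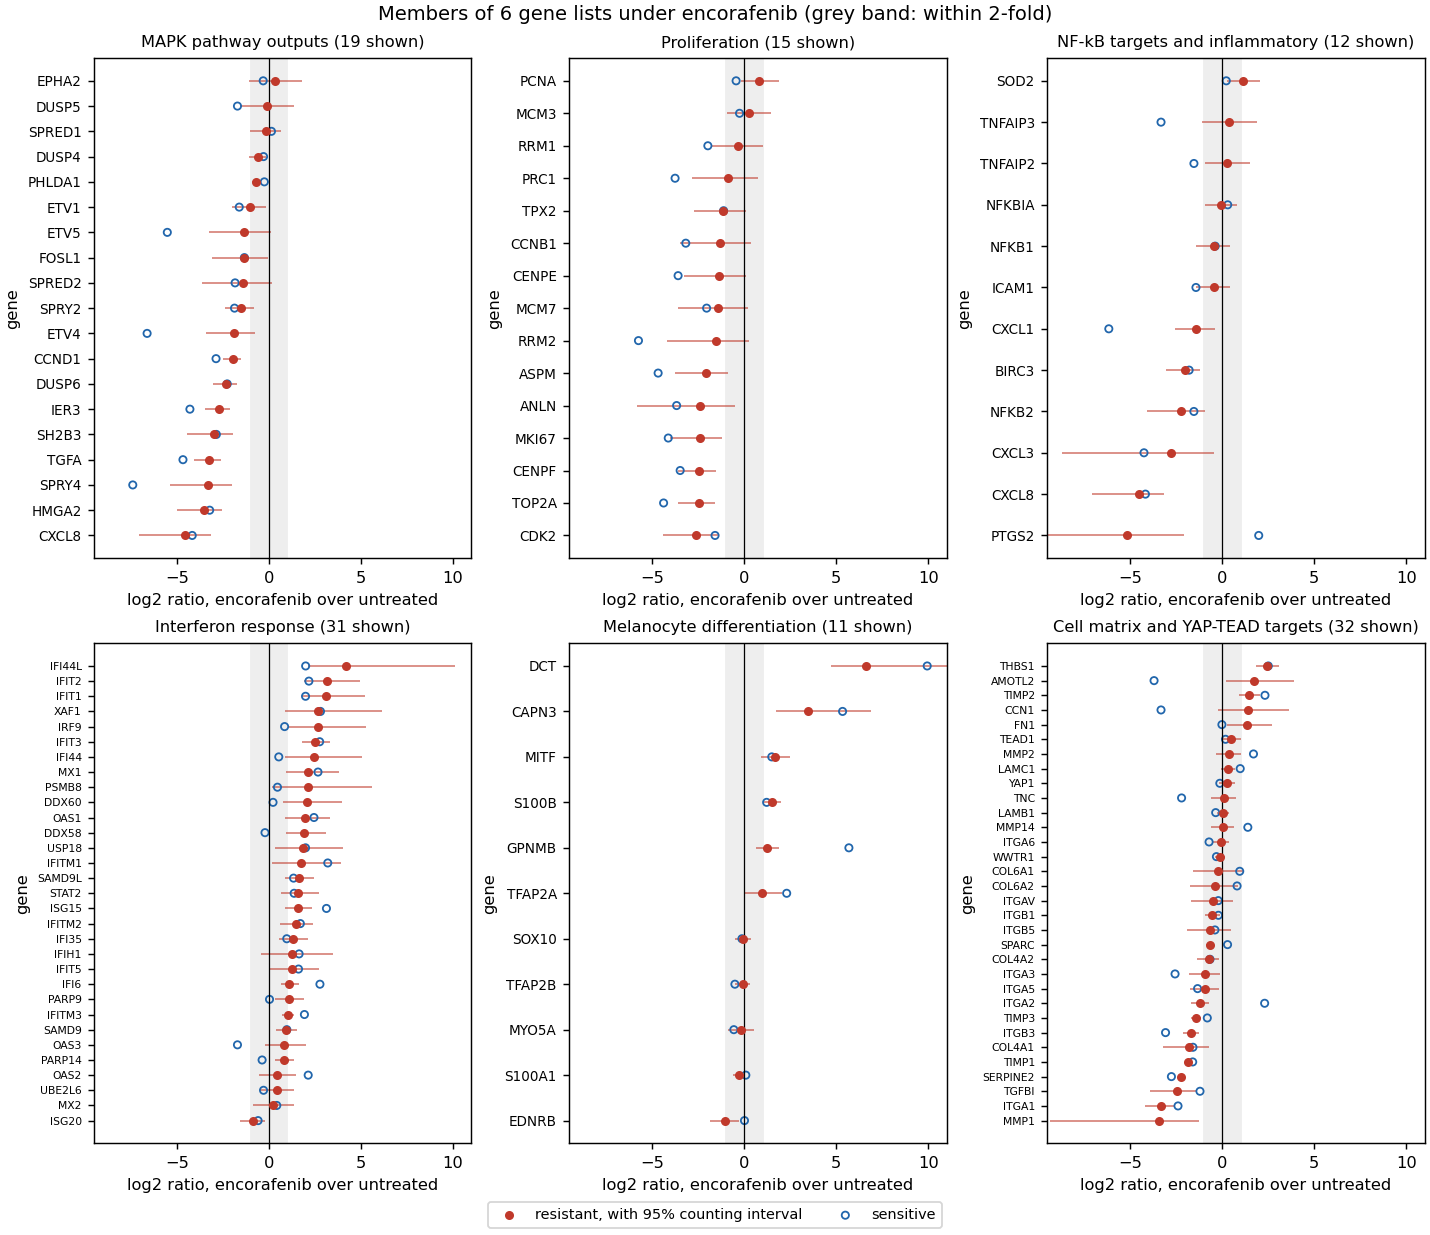
Log2 ratio of encorafenib-treated over untreated (horizontal axis) for compared genes of 6 lists (31 of the 32 interferon response genes are drawn), with red points and bars for the resistant line and its 95% counting interval, open blue circles for the sensitive line and a grey band for ratios within 2-fold; values with a count of 0 depend on the prior count. MAPK outputs and proliferation genes sit mostly left of 0, with resistant medians of -1.54 and -1.43, and interferon response genes mostly right of it, at 1.57.

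Of 44 listed interferon response genes 32 were compared, 26 had an interval above 0 and 1 below it, 5 were called higher, and the median was 1.57. The minimum of 10 counts bears on these figures: 14 of the 32, including 4 of the 5 called, reached it only in the treated library. The 18 that reached it in both libraries had a median of 1.06, with 13 intervals above 0 and 1 below. IFI44L had 1 and 26 counts (4.18, 2.14 to 10.11), IFIT2 5 and 46 (3.13, 1.92 to 4.94) and IFIT1 4 and 37 (3.10, 1.78 to 5.21). The IFIT proteins bind viral RNA, and each of these 3 genes was at 5 counts or fewer without the drug. IRF9, the DNA-binding part of the complex that turns these genes on, had 3 and 21 counts (2.66, 1.11 to 5.24). MX1, an antiviral GTPase, had 6 and 27 counts (2.13, 0.91 to 3.79) and the ubiquitin-like ISG15 23 and 66 (1.55, 0.87 to 2.32). ISG20, an exonuclease, was the exception at 56 and 29 (-0.89, -1.60 to -0.23). The sensitive line's median was 1.48, on fewer counts.

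Promoters of IFIT1 and IFIT3 are shown because those genes had higher counts together and both hold the core letters of the interferon-stimulated response element, GAAANNGAAA. On GRCh38.p14, chr10:89392373-89392672 (plus strand) runs from 250 bases before the IFIT1 start to 50 bases after its first base, and chr10:89327747-89328046 (plus strand) does so for IFIT3, with matches on either strand in capitals.
IFIT1 promoter: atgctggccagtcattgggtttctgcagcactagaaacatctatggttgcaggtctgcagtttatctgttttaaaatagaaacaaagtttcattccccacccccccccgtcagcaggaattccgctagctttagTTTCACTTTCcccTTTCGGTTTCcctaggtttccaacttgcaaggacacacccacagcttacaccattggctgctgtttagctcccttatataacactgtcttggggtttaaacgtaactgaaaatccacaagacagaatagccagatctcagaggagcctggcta
IFIT3 promoter: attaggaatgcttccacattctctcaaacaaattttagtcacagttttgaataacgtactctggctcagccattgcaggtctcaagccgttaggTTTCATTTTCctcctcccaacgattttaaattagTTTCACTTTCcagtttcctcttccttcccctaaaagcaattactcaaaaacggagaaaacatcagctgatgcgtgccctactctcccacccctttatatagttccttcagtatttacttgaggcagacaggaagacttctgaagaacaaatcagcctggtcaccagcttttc
Searched on both strands, GAAANNGAAA occurred in the promoters of 23 of 35 interferon response genes with a promoter in the RefSeq table (65.7%), against 4.38% of all 27305 genes there. A match is a description of the letters and not evidence of binding in these cells.

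Antigen presentation stood in part with the interferon genes. Of 13 compared HLA class I presentation genes none was called, 7 had intervals above 0 and 1 below, and the median was 0.71. Of these 13, 4 reached the minimum count only in the treated library. The 9 that reached it in both libraries had a median of 0.15, with 4 intervals above 0 and 1 below. HLA-C had 31 and 62 counts (1.04, 0.40 to 1.72) and HLA-E 33 and 65 (1.02, 0.40 to 1.68). Among 14 immune cell markers, 3 were compared, with summed counts of 238 and 325. HLA-DRA made up most of these at 203 and 288 counts (0.55, 0.29 to 0.82), CD68 had 22 and 35 and LYZ 13 and 2. The defining leukocyte markers CD3D, CD14 and MS4A1 were at 0 in both libraries and PTPRC at 0 and 1.

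Of 22 NF-kB and inflammatory targets 12 were compared, 3 were called lower and none higher, 6 intervals lay below 0 and 1 above, and the median was -0.94 (sensitive -1.54, or -1.22 with members at 0 set at the floor). The minimum count bears on these figures: 4 of the 12, including 2 of the 3 called, reached it only in the untreated library. Only in the treated library did 1 reach it. The 7 that reached it in both libraries had a median of -0.47, with 2 intervals below 0 and 1 above. With CXCL8 the called members were BIRC3 and PTGS2. BIRC3, an inhibitor of cell death, had 57 and 13 counts (-2.04, -3.08 to -1.20). The chemokine CXCL1 had 31 and 11 (-1.41, -2.59 to -0.41), and PTGS2, the inducible cyclooxygenase, had 18 and 0, at least 5.80-fold lower.

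Pigment cell genes stood apart by member. Of 27 melanocyte differentiation genes 11 were compared, 3 were called higher and none lower, and the median was 0.97. The minimum count bears on this median: 2 of the 11, both among the 3 called, reached it only in the treated library. The 9 that reached it in both libraries had a median of -0.08, with 4 intervals above 0 and 1 below. With DCT the called members were CAPN3, a calpain (2 and 26 counts, 3.45, 1.75 to 6.87), and the calcium-binding S100B (49 and 134, 1.49, 1.02 to 2.00). MITF, the pigment cell master regulator, had 19 and 59 counts (1.66, 0.92 to 2.51), just under the limit, while its partner SOX10 had 94 and 86 (-0.08, -0.52 to 0.36). The melanosome protein GPNMB had 32 and 74 counts (1.25, 0.64 to 1.90) and the endothelin receptor EDNRB 45 and 21 (-1.03, -1.87 to -0.27). TYR, MLANA, KIT, OCA2 and SLC45A2 were listed with no count in the treated library or the untreated one, and PMEL and TYRP1 had 0 and 1 count. The higher DCT count was thus not matched by the other melanin enzymes at this depth. The downstream of the pair of DCT start sites in RefSeq is shown because its window holds CATGTG, the core of the element MITF binds, in each orientation (chr13:94479633-94479932, minus strand, GRCh38.p14, matches in capitals).
DCT promoter: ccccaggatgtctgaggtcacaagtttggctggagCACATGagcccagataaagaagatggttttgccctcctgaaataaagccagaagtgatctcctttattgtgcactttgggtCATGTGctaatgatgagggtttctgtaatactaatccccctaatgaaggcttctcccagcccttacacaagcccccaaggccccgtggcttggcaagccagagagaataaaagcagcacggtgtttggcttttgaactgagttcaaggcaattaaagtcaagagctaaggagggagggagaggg
That motif, searched on both strands, was in the promoters of 12 of 22 melanocyte genes (54.5%) and of 13.4% of all genes.

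Genes of the undifferentiated and neural crest state gave no common direction over all compared members. Among 17 compared, 2 were called higher and 1 lower, with a median of 0.17. That median ranged from -0.54 to 0.42 over other scalings and filters. Of the 17, 6 reached the minimum count only in the treated library, including the 2 called higher, and 3 only in the untreated one. The 8 that reached it in both libraries had a median of -1.13, with 5 intervals below 0 and 1 above. The factors ZEB2 (6 and 37 counts, 2.58, 1.42 to 4.21) and SOX2 (8 and 43, 2.40, 1.37 to 3.78) were higher, and the intermediate filament NES was lower (55 and 11, -2.22, -3.36 to -1.32). ZEB1, a relative of ZEB2, had 43 and 13 counts (-1.64, -2.70 to -0.75). AXL, a receptor kinase of dedifferentiated melanoma, had 38 and 18 (-1.01, -1.93 to -0.18). The ZEB pair thus stood in opposite directions, with intervals that did not overlap.

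The list of cell matrix genes and YAP-TEAD targets had 7 of 32 compared called lower, 1 higher and a median of -0.47. The 7 were ITGA1, SERPINE2, TIMP1, TGFBI, ITGB3, MMP1 and TIMP3, which encode integrin subunits, protease inhibitors, a matrix protein and a protease. SERPINE2, which blocks thrombin and plasminogen activators, had 2098 and 424 counts (-2.26, -2.41 to -2.11) and the metalloproteinase inhibitor TIMP1 1855 and 488 (-1.88, -2.02 to -1.73). TIMP3 had 460 and 165 counts (-1.43, -1.70 to -1.17), but TIMP2 38 and 101 (1.45, 0.91 to 2.04), so the family was not of 1 kind. The matrix protein TGFBI had 42 and 7 counts (-2.46), the integrin subunit ITGB3 202 and 60 (-1.69, -2.14 to -1.28), and THBS1, given above, was the member called higher. Of the YAP-TEAD members, AMOTL2 had 4 and 14 counts (1.73, 0.19 to 3.92) and CCN1 4 and 11 (1.40, -0.25 to 3.61), and in the sensitive line they had 8 and 0 and 6 and 0. The coactivator YAP1 had 83 and 95 counts (0.24, -0.20 to 0.69) and the DNA-binding TEAD1 54 and 72 (0.46, -0.06 to 1.00). In a list of S100 and annexin genes S100A16 (179 and 38 counts, -2.17, -2.73 to -1.68) and S100A13 (326 and 102, -1.62, -1.96 to -1.30) were lower, while S100B was higher.

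Iron genes were of interest because the series' title names NCOA4 and iron trafficking. Of 36 iron handling genes 19 were compared, 2 were called higher and 1 lower, and the median was 0.16. Both higher ones were the subunits of ferritin, the iron storage shell: FTL had 306 and 788 counts (1.41, 1.22 to 1.61) and FTH1 627 and 1361 (1.17, 1.03 to 1.31). The mitochondrial iron importer SLC25A37 was lower at 316 and 106 counts (-1.52, -1.86 to -1.20). NCOA4, which carries ferritin to the lysosome, had 33 and 28 counts (-0.18, -0.97 to 0.58), an interval within 2-fold in either direction. TFRC, the transferrin receptor, had 68 and 46 (-0.51, -1.09 to 0.05). In the sensitive line FTL (1.36, 1.15 to 1.58) and FTH1 (1.68, 1.39 to 1.97) were higher as well. Of 20 compared ferroptosis genes 1, PTGS2, was called, GPX4 had 14 and 20 counts (0.55, -0.49 to 1.66) and SLC7A11 22 and 8 (-1.36, -2.79 to -0.19).

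Further lists had few or no members called. Of 21 compared p53 targets none was called, 7 intervals lay above 0 and none below (median 0.51). Over all protein-coding genes 9.40% lay above and 10.7% below. Of the 21, 3 reached the minimum count only in the treated library. The 18 that reached it in both libraries had a median of 0.33, with 6 intervals above 0 and none below. CDKN1A, the cell cycle inhibitor p21, had 163 and 246 counts (0.64, 0.35 to 0.94). Hypoxia and glycolysis genes had none of 29 called (median -0.11), heat shock chaperones none of 25 (-0.26, with 10 intervals below 0 and none above), and translation factors none of 34 (-0.21). The 43 compared genes for autophagy and the lysosome stood at 0.01 in the median. Of 80 cytosolic ribosomal protein genes 37 had intervals below 0 and 2 above. Their median was -0.17, and it ranged from -0.20 to -0.05 over other scalings and filters. The share of all protein-coding genes with an interval below 0 was 10.7%, but the 2 figures are not alike. These 80 genes held 50704 of the 306974 untreated counts of the 6678 compared genes, so their intervals are narrower than most. Of the 80, 27 have exons that overlap small RNA genes. The 1 called was RPL17 (280 and 723 counts, 1.42), whose annotated exons overlap the small RNA genes SNORD58A, SNORD58B and SNORD58C.

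**Figure D3:**
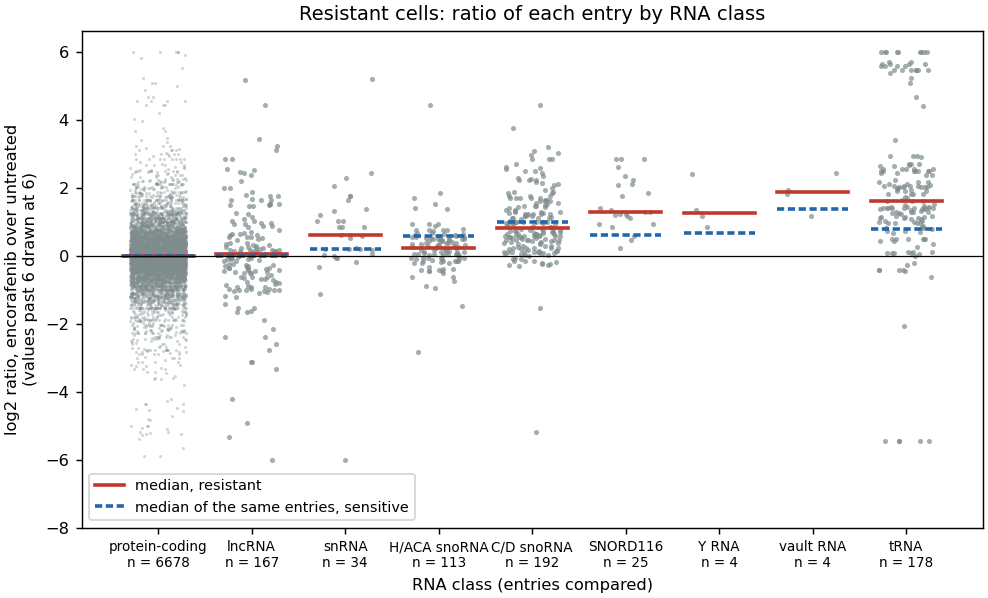
Log2 ratio of encorafenib-treated over untreated for each compared entry of the resistant line (vertical axis, 1 point per entry) by RNA class (horizontal axis), with red lines for the resistant median and dashed blue lines for the sensitive median of the same entries. The resistant median was -0.02 for protein-coding genes, 0.82 for box C/D snoRNA and 1.62 for tRNA.

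Several classes of small noncoding RNA took a larger share of all counts in the treated resistant library, where ribosomal RNA took less. The share of snoRNA, guides for chemical modification of other RNAs, was 4.74% untreated and 7.38% treated (1.56-fold, sensitive 1.14-fold). That of tRNA was 0.187% and 0.431% (2.30-fold, sensitive 1.25-fold), and that of Y RNA, small RNAs bound by the Ro protein, 0.230% and 0.619% (2.69-fold, sensitive 0.824-fold). Protein-coding genes were at 1.42% and 1.50%. Shares within a library sum to a whole, so they were also taken of the counts other than ribosomal RNA. On that scale snoRNA was at 62.8% and 65.1% (1.04-fold), with C/D box members at 1.07-fold and H/ACA box members at 0.749-fold. Y RNA was at 1.79-fold and tRNA at 1.53-fold, while snRNA was at 0.819-fold, guide RNA of Cajal bodies at 0.812-fold, lncRNA at 0.981-fold and protein-coding genes at 0.702-fold.

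Among 305 snoRNAs compared 71 were higher (23.3%) and 2 lower (0.656%). The box C/D family, which guides 2′-O-methylation, held 69 of the higher ones among its 192 members (median 0.82), and the H/ACA family, which guides pseudouridylation, 2 of 113 (median 0.22). In the sensitive line those medians were 0.99 and 0.59. Sequences of 4 box C/D members with high ratios are given in RefSeq's letters, with the C box core TGATG and the D box CTGA in capitals. SNORD36A, SNORD36B and SNORD36C lie on chromosome 9 and SNORD82 on chromosome 2.
SNORD36A: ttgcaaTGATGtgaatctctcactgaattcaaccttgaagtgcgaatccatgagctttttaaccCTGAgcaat
SNORD36B: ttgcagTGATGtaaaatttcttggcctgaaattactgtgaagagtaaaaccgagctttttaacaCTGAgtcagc
SNORD36C: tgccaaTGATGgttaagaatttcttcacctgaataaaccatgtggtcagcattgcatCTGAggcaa
SNORD82: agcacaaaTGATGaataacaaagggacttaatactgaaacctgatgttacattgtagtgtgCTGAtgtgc
SNORD36C had 248 and 5219 counts (4.44, 4.26 to 4.63), SNORD36B 102 and 902 (3.19, 2.90 to 3.50) and SNORD36A 205 and 919 (2.21). Their host gene RPL7A, from whose introns they are cut, had 449 and 400 counts (-0.12, -0.32 to 0.08). SNORD82 had 269 and 3539 counts (3.76, 3.59 to 3.95) while its host NCL, the nucleolar protein nucleolin, had 260 and 203 (-0.31, -0.58 to -0.04). For both hosts the intervals of the snoRNAs lay far above that of the host transcript. SNORD34, a box C/D RNA of RPL13A, had 14118 and 59875 counts (2.13) against 1084 and 952 for RPL13A (-0.14, -0.27 to -0.01).

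The abundant SNORD76 differed little, at 121319 and 103530 counts (-0.18), with its host GAS5 at 141 and 98 (-0.47, -0.86 to -0.09). SNORA23, an H/ACA RNA within IPO7, was the main exception, at 4687 and 640 counts (-2.82, -2.94 to -2.70), against 727 and 701 in the sensitive line (0.93, 0.78 to 1.08); IPO7 had 116 and 67 (-0.74). The imprinted SNORD116 cluster had 18 of 25 compared copies called higher and summed counts of 8882 and 24609 (1.52, sensitive 0.63). Of 25 compared Cajal body RNAs, which guide modification of spliceosomal RNA, 2 were higher and 2 lower: SCARNA9 had 399 and 1279 counts (1.73) and SCARNA28 856 and 152 (-2.44).

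Of 178 tRNA entries compared, 98 were higher (55.1%) and 6 lower (3.37%), with a median of 1.62 (sensitive 0.79). Many entries are identical gene copies with identical counts, so 178 entries hold 100 distinct sets of counts over the 4 libraries. Single copies stood in opposite directions. TRV-CAC4-1 had 0 and 514 counts, at least 177-fold higher, while TRV-CAC1 copies such as TRV-CAC1-3 had 22 and 0, at least 7.09-fold lower. Summed over copies, valine tRNA of this anticodon had 658 and 2334 counts (1.88, sensitive -0.23), glycine tRNA of anticodon GCC 1136 and 4246 (1.95, sensitive 2.10) and glutamine tRNA of anticodon CTG 53 and 373 (2.85).

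All 4 Y RNAs had intervals above 0 and 3 were called higher. RNY4 had 3904 and 20114 counts (2.41), RNY5 25677 and 62899 (1.34), RNY1 7793 and 16722 (1.15) and RNY3 15662 and 27128 (0.84). Vault RNAs, parts of the vault particle, had 3 of 4 called, with VTRNA1-2 at 55 and 286 (2.42) and VTRNA1-1 at 164 and 606 (1.93). Other polymerase III products varied. RN7SL2, a signal recognition particle RNA, had 8041 and 26437 counts (1.77) and RPPH1, the RNase P RNA, 4417 and 7779 (0.87). RN7SK, which holds back elongation factor P-TEFb, had 37553 and 36520 (0.01). Of 34 spliceosomal and related snRNA entries 9 were higher (26.5%) and 1 lower (2.94%). The U6 copies RNU6-7 and RNU6-8 stood opposite at 10 and 368 and at 154 and 0 counts, and the 5 U6 copies summed to 3547 and 6470 (0.92).

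Of 167 long noncoding RNAs compared 14 were higher (8.38%) and 6 lower (3.59%). LZTS1-AS1 had 8 and 89 counts (3.44) and LOC105375001 941 and 5272 (2.53). SPRY4-IT1, which lies within the SPRY4 locus, had 20 and 0 counts, at least 6.44-fold lower, beside SPRY4 itself at 46 and 4. SENP3-EIF4A1, a readthrough transcript, had 124 and 0 counts, but EIF4A1, with which it shares exons, had 180 and 260, and both together had 304 and 260 (-0.18). The nuclear MALAT1 was close to level at 8814 and 10862 (0.35), and MIR100HG was lower at 59 and 15 (-1.89, -2.85 to -1.09). None of 16 snoRNA host long noncoding RNAs was called.

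**Figure D4:**
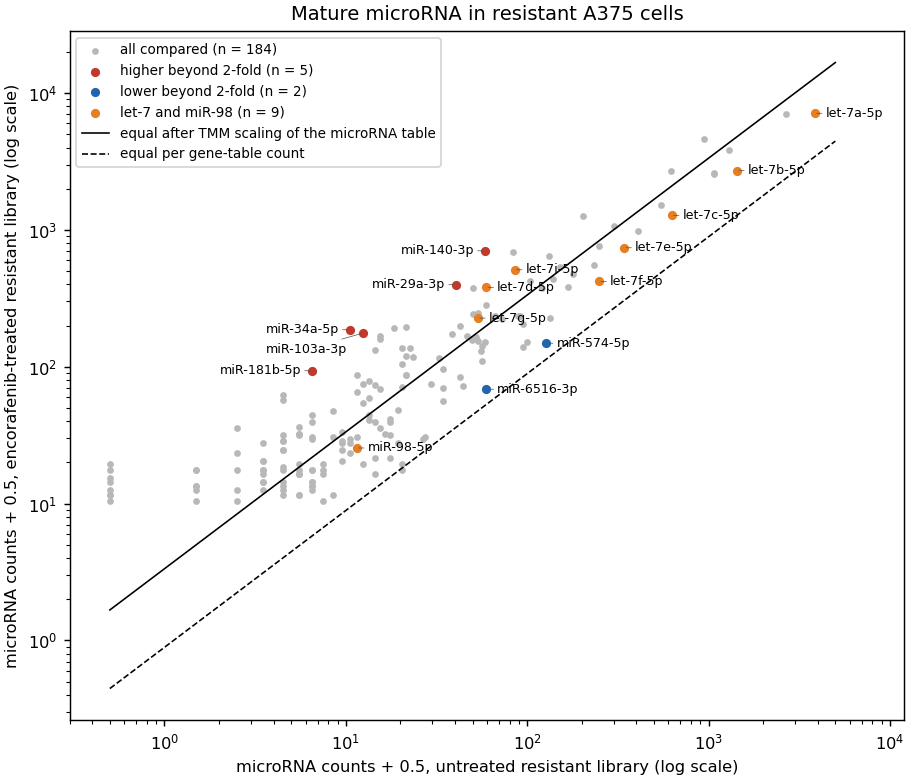
Counts plus 0.5 of each compared mature microRNA in the untreated (horizontal axis, log scale) and encorafenib-treated (vertical axis, log scale) resistant library, 1 point per microRNA, with lines for equal values after TMM scaling of the microRNA table (solid) and per gene-table count (dashed). All but 1 of the 184 points lie above the dashed line, and most let-7 members in orange lie between the lines.

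The microRNA tables held 20808 counts untreated and 59045 treated, 3.19-fold more per gene-table count (3.14 to 3.24), whereas in the sensitive line the fold was 0.823 (0.792 to 0.854). Of the 184 compared, 183 were higher per gene-table count, so the ratios below, scaled within the microRNA table by TMM, are relative to this common shift. On that scale 5 were higher (2.72%) and 2 lower (1.09%), with a median of 0.09, and intervals lay above 0 for 32 (17.4%) and below 0 for 35 of the 184. miR-34a-5p, a known p53 target, had 10 and 186 counts (2.45, 1.57 to 3.56). miR-103a-3p had 12 and 176 (2.11, 1.29 to 3.11) and miR-181b-5p 6 and 93 (2.17, 1.04 to 3.70). With more counts, miR-140-3p had 58 and 703 (1.86, 1.47 to 2.27) and miR-29a-3p, of a family known to target collagen transcripts, 40 and 398 (1.57, 1.10 to 2.08). All 5 had at most 22 counts in either sensitive library, so their sensitive ratios are little informative. miR-221-3p, just short of the limit, had 83 and 685 counts (1.30, 0.97 to 1.65), while miR-222-3p of the same cluster had 408 and 973 (-0.49, -0.65 to -0.32).

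The lower pair were miR-574-5p, at 126 and 148 counts (-1.50, -1.86 to -1.15), and miR-6516-3p, at 59 and 68 (-1.52, -2.06 to -1.01). Neither had fewer counts in the treated library; they are lower only relative to the other microRNAs, and per gene-table count they were higher, at 0.40 and 0.37. The let-7 family behaved likewise: its 9 members had 6708 counts untreated and 13398 treated in sum, a median of -0.63 and 5 intervals below 0. let-7a-5p, the most counted microRNA, had 3850 and 7113 (-0.85, -0.91 to -0.80). let-7d-5p (59 and 379, 0.94, 0.54 to 1.36) and let-7i-5p (85 and 511, 0.85) had intervals above 0, so members with the shared seed did not have 1 common direction. Among other abundant microRNAs, miR-125b-5p had 2662 and 7047 counts (-0.34) and miR-191-5p 949 and 4593 (0.53).

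**Figure D5:**
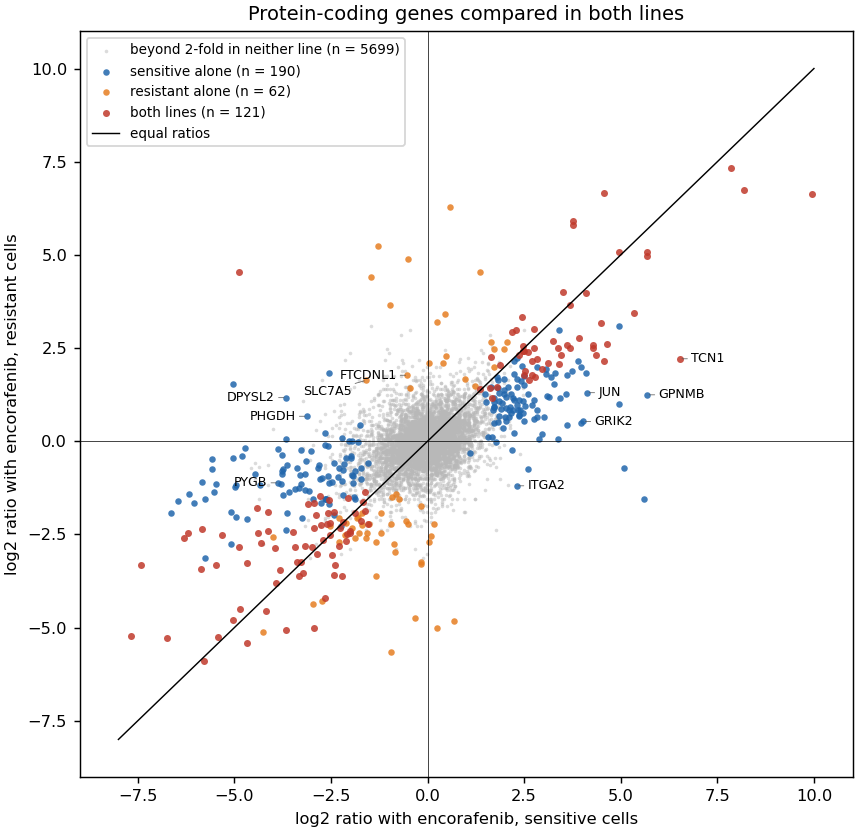
Log2 ratio of encorafenib-treated over untreated in the sensitive line (horizontal axis) and in the resistant line (vertical axis) for 6072 protein-coding genes, 1 point per gene, coloured by the line in which it was called. Most called genes share a sign, with ITGA2 at 2.31 and -1.20 and SLC7A5 at -1.59 and 1.63 (sensitive, then resistant) among the exceptions; values with a count of 0 depend on the prior count.

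The resistant response was set beside that of the sensitive line, with which it shares no library. Over the 7310 protein-coding genes with enough counts in that line, 166 were higher under the drug (2.27%) and 196 lower (2.68%). In 6072 protein-coding genes compared in both lines, 74 were called higher in the resistant line and 149 in the sensitive line, and 52 were called in both, 70.3% of the resistant and 34.9% of the sensitive calls. On the lower side 109, 162 and 68 genes were called, and the shared ones were 62.4% and 42.0%. Sizes differed by which line made the call. Genes called lower in the resistant line had medians of -2.55 there and -2.48 in the sensitive line, but those called lower in the sensitive line had -1.55 and -3.14, and for 76 of these 162 the interval of the difference lay above 0. Over all 6678 genes the interval of the difference lay above 0 for 6.98% and below 0 for 6.48%. Genes selected in a line for a large ratio there tend to show a larger ratio in that line, and the difference itself has no replicate check.

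Several members of amino acid metabolism differed between the lines. Of 26 compared amino acid and stress response genes, 8 had a difference interval above 0 and none below, with medians of 0.15 in the resistant and -0.46 in the sensitive line. SLC7A5, the leucine carrier LAT1, had 33 and 100 counts (1.63, 1.07 to 2.26) in the resistant line and 37 and 6 (-1.59, -3.18 to -0.39) in the sensitive one, a difference of 3.22. PHGDH, which starts serine synthesis, had 18 and 28 counts against 57 and 3, a difference of 3.80. Outside that list DPYSL2, a neuronal cytoskeleton regulator, had 8 and 18 against 58 and 2, a difference of 4.84. For these 3 genes the sensitive counts were much lower under the drug, and the resistant ones were not. ITGA2, a collagen receptor subunit, went the other way, at 131 and 55 counts in the resistant line against 45 and 114 in the sensitive one, a difference of -3.50. GPNMB (-4.45) and JUN (-2.84) were higher under the drug in both lines but by less in the resistant one. Of the ribosomal protein genes, 39 of 80 had a difference interval above 0 and 1 below. Their medians were -0.17 in the resistant and -0.46 in the sensitive line, and their high counts make such intervals narrow.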

How the data were processed

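Total RNA (RNeasy) was made into small RNA libraries (SMARTer smRNA-Seq) and sequenced on a NextSeq 500, per the labels' protocols, for 4 libraries. The authors deposited raw counts per gene and per mature microRNA for each library, on hg19 per the submitters' processing notes; no aligner, counter or treatment of reads with several hits is named there or in the labels. Counts were scaled by TMM over the 4 libraries (edgeR 4.0.16, R 4.3.3), separately in each table, and log2 ratios used a prior count of 0.5. Exact conditional 95% intervals (scipy 1.17.1) cover counting error only. Entries with at least 10 counts in 1 resistant library were compared, and a call needed the bound nearest 0 beyond 2-fold. The genes named by rank were the 15 protein-coding genes each way that came first by that bound among those reaching 50 counts in either resistant library. The rule also named the 8 microRNAs each way by that bound and the 5 with most counts, 3 entries per structural RNA class each way, and up to 4 called members per list. Genes further down the ranking, snoRNA hosts, sums over copies and other list members were chosen after their values were seen, and the comparison and its lists were chosen with earlier results of these data known. Small RNA overlap was taken from the human annotation supplied (99.8% of compared protein-coding genes matched). Intervals were tested on simulated data that held counting error alone, so spread between libraries could not be checked there. Alternatives were other scalings (DESeq2 1.42.0 size factors, totals), count filters, another prior, a 20% added spread and leaving out shared or overlapping entries. A few genes measured here are not reported.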

Additional observations from a re-analysis of the deposited data

Results flagged for a closer look

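The entries given here stood apart because the encorafenib response had opposite signs in the resistant and the sensitive line. With 1 library per group these differences were not tested. Each value is the resistant minus the sensitive log2 ratio.

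Among protein-coding genes with at least 50 counts, SLC7A5 had a difference of 3.22 and ITGA2 one of -3.50. RPL17 (1.88) and CSKMT (-1.41) had opposite signs too, and both are genes whose exons overlap snoRNA genes. CT45A3 had a difference of 9.44 on at most 19 counts in any library, with 0 counts in 1 library of each line. Summed with its near-identical CT45A copies, the ratio was -0.24 in the resistant and -0.57 in the sensitive line, so the copies together did not have opposite signs.

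Among small RNAs, SNORA23 had a difference of -3.75 and hsa-miR-6516-3p one of -2.07. The opposite signs of hsa-miR-6516-3p hold for scaling within the microRNA table. Per gene-table count it was higher under the drug in both lines. The copies RNU6-7 (6.75), RNU6-8 (-8.86), RNVU1-18 (9.90) and TRG-GCC2-3 (13.20) of multicopy genes also differed. Several of these copies have a count of 0, so the size of their differences depends on the prior count. The U6 copies summed had ratios of 0.92 in the resistant and 0.65 in the sensitive line. Sums over the RNVU1 copies (0.25 and 0.13) and over glycine tRNA of anticodon GCC (1.95 and 2.10) also shared a sign.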

How the results depend on the processing

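The 90 higher and 120 lower protein-coding genes stayed within 1.5 times under every other scaling, no count filter, a prior count of 2, and leaving out shared or overlapping entries (86 to 105 higher, 103 to 122 lower). Requiring 50 counts left 40 and 65 (all entries 203 and 73), and adding a 20% spread left 49 and 65 (all entries 147 and 80). Scaling by total counts moved the median gene by 0.12. For microRNAs, total-count scaling gave 11 higher and 0 lower and gene-table scaling 105 and 0, under which miR-574-5p (0.40) and miR-6516-3p (0.37) reversed. As shares of counts other than ribosomal RNA, protein-coding (0.702), snRNA (0.819) and lncRNA (0.981) reversed, and snoRNA (1.04), tRNA (1.53) and Y RNA (1.79) moved.

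Of the list medians under alternatives, 290 stayed and 1 moved; those of the autophagy, cytoskeleton, housekeeping, hypoxia, proteasome and undifferentiated state lists changed sign under some settings. Of single entries 725 values stayed, 55 moved and 2 reversed. No paired analysis was possible because each group has 1 library, and for the same reason leaving out a replicate was not run.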

Other observations

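Further higher genes, by rank, included a binding protein and several regulators. The vitamin B12 binder TCN1 had 38 and 172 counts (log2 ratio 2.21, 1.71 to 2.77), against 1 and 78 in the sensitive line. Regulators among them were PIK3R1, the regulatory subunit of PI3 kinase (22 and 108, 2.32), the factors MAF (25 and 118, 2.26), TBX2 (11 and 63, 2.51) and SOX4 (38 and 127, 1.78), and the kinase PLK2 (42 and 164, 2.00).

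CSPG4, a melanoma surface proteoglycan, had 110 and 28 counts (-1.91, -2.58 to -1.32). KRT18, an epithelial keratin, had 64 and 21 (-1.54, -2.34 to -0.83). HPRT1, often used as a reference gene, had 26 and 4 counts (-2.51, -4.63 to -1.12) and was the 1 called of 18 compared housekeeping genes.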
